A study of Homo sapiens with 60 samples.

Results

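The cytosolic ribosomal protein genes were followed across HT29 cells treated with 7 herbal water extracts or with vehicle. Members were the protein-coding genes whose symbol is RPL or RPS followed by a digit, with RPLP0, RPLP1, RPLP2 and RPSA added, and with S6 kinase genes and pseudogenes left out. This rule found 90 genes among the 60675 in the deposited table. Of these, 77 are canonical ribosomal proteins (31 of the small 40S subunit and 46 of the large 60S subunit), 10 are paralogs of canonical members and 3 are readthrough genes that join a member to its neighbour. The rule leaves out FAU, which encodes a ribosomal protein fused to a ubiquitin-like protein.

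HT29 is an established human colorectal adenocarcinoma cell line, which was grown in DMEM with 10% fetal bovine serum. Cells were exposed for 24 h to water extracts of the formulas Sagunja-tang and Samul-tang or of 5 single plants (Cinnamomi Cortex, Astragali Radix, Paeoniae Radix, Cnidii Rhizoma and Rehmanniae Radix Preparata). Each extract was given at 500, 100 or 20 µg/mL, and vehicle cells received DMSO. The sample labels give 0.1% DMSO and the series' design text gives 2%, and the same text says that extracts with an inhibitory concentration below the top dose were used at that concentration and at dilutions of it, so the 3 doses are nominal. Every group had 3 libraries except those of Paeoniae Radix, which had 1 library at each dose and entered no test. RNA was read as a polyadenylated, strand-marking library in 100-base pairs, and the 60 libraries held 20459346 to 36253747 estimated counts. The labels do not tie the 3 libraries of a group to separate cultures; their spread, on which every p-value rests, may therefore be technical.

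The ribosome is built from ribosomal RNAs and about as many proteins as there are canonical members here, with nearly every protein present once per particle. Ribosomal protein mRNAs are among the most abundant in a dividing cell. Most begin with a 5′ terminal oligopyrimidine (TOP) tract, a C at the cap followed by a run of pyrimidines, and the mTOR kinase and the cap-binding protein LARP1 govern how strongly such mRNAs are stored or translated. The measurements here are mRNA levels, and translation was not measured.

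The start of transcription carries the sequence feature for which the family is known, so it is shown for a chosen part of the members named below. Each line holds 30 bases from RefSeq on GRCh38.p14, with 10 bases before the annotated start and 20 from it, and capitals mark the first run of a C followed by at least 4 pyrimidines that begins at or after the start. The search used the strand of the gene and no other motif. Where a gene had several annotated starts, the one with the longest tract at its first base is shown. This choice applied to RPS27A, with 3 starts, and RPL26L1, with 2.
RPS12 (chr6:132814559-132814588, plus strand): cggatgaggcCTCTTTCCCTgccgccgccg
RPS21 (chr20:62387093-62387122, plus strand): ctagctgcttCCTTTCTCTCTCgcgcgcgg
RPL9 (chr4:39458903-39458932, minus strand): taatgacgacagacgttCTTTCTTTgctgc
RPS27A (chr2:55232678-55232707, plus strand): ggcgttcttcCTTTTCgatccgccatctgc
RPL31 (chr2:101002279-101002308, plus strand): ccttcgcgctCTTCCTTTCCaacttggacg
RPS24 (chr10:78033853-78033882, plus strand): aatcgtggttCTCTTTTCCTCCTTggctgt
RPS26 (chr12:56041908-56041937, plus strand): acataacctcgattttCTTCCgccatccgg
RPL28 (chr19:55385922-55385951, plus strand): cctcgccttcCTCTTTCCgtctcaggtcgc
RPS3 (chr11:75399508-75399537, plus strand): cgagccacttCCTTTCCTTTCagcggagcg
RPS27 (chr1:153990752-153990781, plus strand): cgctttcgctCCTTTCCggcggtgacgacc
RPS27L (chr15:63157458-63157487, minus strand): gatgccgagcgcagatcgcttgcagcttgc
RPL26 (chr17:8383174-8383203, minus strand): gcgtgtagttCTCTTCCCTTTTgcggccat
RPL26L1 (chr5:172958719-172958748, plus strand): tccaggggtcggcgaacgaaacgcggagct
RPS12, RPS21, RPS27A, RPL31, RPS24, RPL28, RPS3, RPS27 and RPL26 opened with the tract at the first base. In RPL9 and RPS26 it began further in, and in the paralogs RPS27L and RPL26L1 the window held none.

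A promoter entry was found for 72 of the 90 members, and 49 of these (68.1%) opened with the tract. Among 27305 genes with an entry, 1404 (5.14%) did. A gene with several annotated starts was counted if any of them matched. A tract beginning anywhere in the first 20 transcribed bases was found in 81.9% of members and in 31.4% of all genes. A match describes these letters at an annotated start and does not show that the mRNA begins there.

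The family passed the filter on low counts almost whole. Of the 90 members, 84 were tested, comprising all 77 canonical genes, 5 paralogs and 2 readthrough genes. The other 6 were RPS4Y1, RPS4Y2, RPL3L, RPL10L, RPL39L and RPL36A-HNRNPH2. RPL3L reached at most 0.263 CPM (the count scaled to the effective library size after TMM) in any of the 57 tested libraries and RPL36A-HNRNPH2 at most 0.363, while RPL10L and RPL39L were at 0 in all of them. RPL3L is known from heart and skeletal muscle, and RPL10L and RPL39L from the testis.

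Before the members' values, 1 property of the libraries has to be stated. An earlier look at all genes of these data had shown that the 57 tested libraries stand apart as a first set of 27 and a second set of 30. Each library was assigned to a set by its sample code. The labels name no such division, and its boundary falls within the code series shared by Cinnamomi Cortex and Astragali Radix. All 3 vehicle libraries and all Cnidii Rhizoma and Rehmanniae Radix Preparata libraries belong to the first set. All Sagunja-tang and Samul-tang libraries belong to the second, and every Cinnamomi Cortex and Astragali Radix group holds 2 libraries of the second set and 1 of the first. In those plant groups the library of the first set is replicate 1, and those of the second are replicates 2 and 3. Within them, library set and replicate number cannot be told apart. One library of the second set, Cinnamomi Cortex 500 µg/mL replicate 2, lay with the first set. Against vehicle, the formulas and the sets therefore cannot be told apart directly, and what the labels say of the codes does not name a cause for the sets. Replicates of a group correlated at 0.993 to 0.997 on the log scale. All 11 markers of colon epithelium reached 1 CPM, with a sum of 11181 to 14198 CPM, against 1.47 to 2.78 for 6 fibroblast markers, 4.13 to 6.20 for 6 leukocyte markers and 0 to 0.465 for 5 hepatocyte markers.

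Counting all 90 members together, the family took 4.76% to 5.90% of the counts of a tested library, with a median of 5.36%. It took 5.62%, 5.54% and 5.59% in Sagunja-tang 500 µg/mL, against 5.46%, 5.18% and 5.00% in vehicle. The Sagunja-tang libraries lay above every vehicle library, at 5.58% ± 0.036 against 5.22% ± 0.23 (SD, n = 3 each). Samul-tang 500 µg/mL gave 5.51% ± 0.054 and Rehmanniae Radix Preparata 500 µg/mL the lowest mean at that dose, 5.07% ± 0.20. Across 57 libraries the coefficient of variation of this share was 4.30%.

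The share moved within single extracts by about as much as between them. In Sagunja-tang it was 5.13% ± 0.38 at 20, 5.57% ± 0.28 at 100 and 5.58% ± 0.036 at 500 µg/mL, and the 20 µg/mL libraries (5.12%, 5.52% and 4.76%) lay below all of those at 500. In Cinnamomi Cortex it was 5.14% ± 0.16, 5.51% ± 0.058 and 5.24% ± 0.14 at 20, 100 and 500 µg/mL, highest at the middle dose. The single Paeoniae Radix library at 20 µg/mL held the highest share of all 60, 6.19%, and those at 100 and 500 µg/mL held 5.57% and 5.58%. By set, the second averaged 5.40% ± 0.24 (n = 30) and the first 5.23% ± 0.19 (n = 27), and the ranges overlapped.

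Mitochondrially encoded mRNAs take a large part of the same counts and varied more. Their share was 5.84% to 7.33% in the 6 formula libraries at 500 µg/mL, against 8.71%, 9.89% and 11.4% in vehicle, so the groups did not overlap. With those 13 mRNAs left out of the total, the family took 5.98% ± 0.038 in Sagunja-tang 500 µg/mL and 5.91% ± 0.094 in Samul-tang 500 µg/mL, against 5.79% ± 0.17 in vehicle. The difference between Sagunja-tang and vehicle was then smaller than on the full total, and the 2 groups overlapped. Vehicle replicate 1, at 5.98%, lay above Sagunja-tang 500 µg/mL replicates 2 and 3, both at 5.96%. In bulk RNA, a change in how many cells are of a kind and a change in RNA per cell cannot be told apart.

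**Figure D1:**
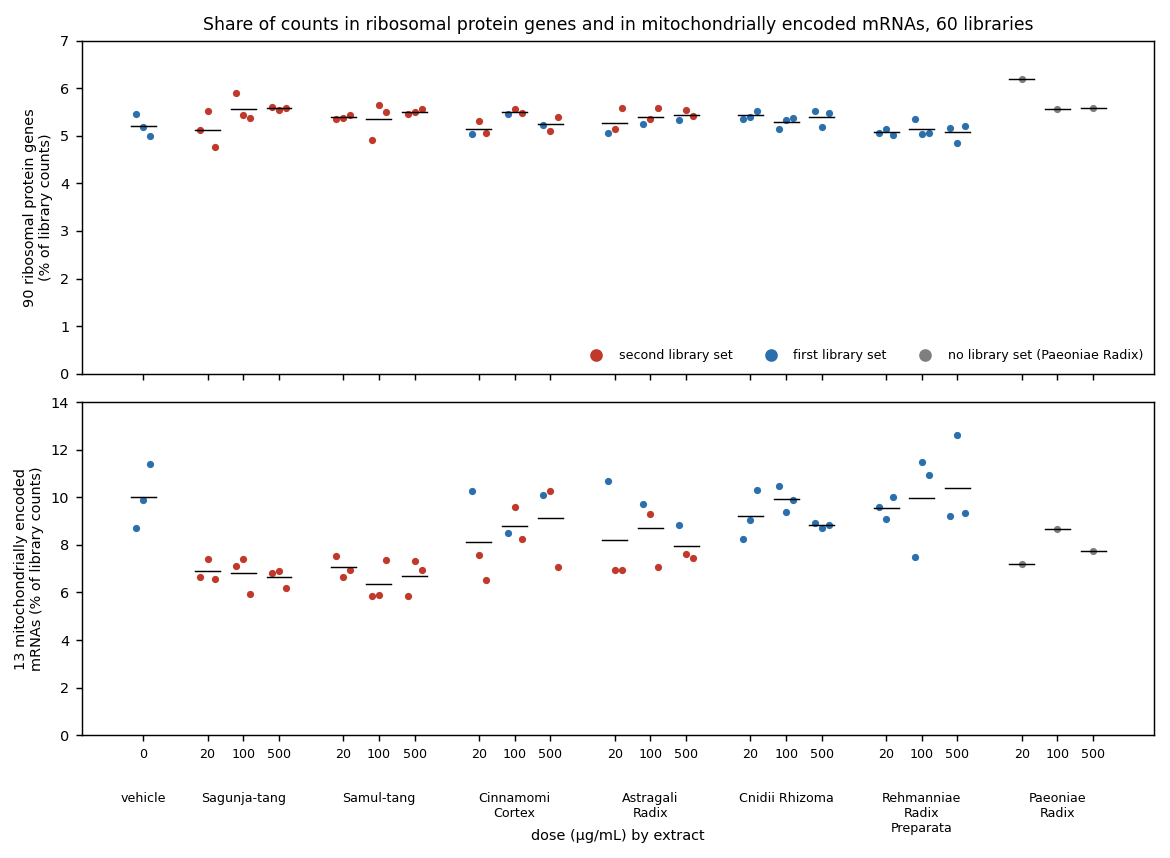
Share of library counts in the 90 ribosomal protein genes (upper panel) and in 13 mitochondrially encoded mRNAs (lower panel), 1 point per library, by extract and dose in µg/mL, with colour for library set. The family share stays between 4.76% and 5.90% in the tested libraries, while the mitochondrial share runs from 5.84% to 12.6%.

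Levels per kilobase of coding sequence in vehicle give the order of the members within a library. The canonical members had a median of 1280 CPM per kb. RPL41, whose coding sequence is only 75 bases, stood highest at 9033, and RPL13A at 3728 ± 81 (SD, n = 3) and RPL37 at 3601 were also among the highest. The lowest canonical members were RPS29 at 149 and RPS12 at 457 ± 81, so proteins that stand side by side in the ribosome differed widely in mRNA level on this scale. RPS6, the S6 kinase substrate, stood at 1703 CPM per kb, and the scaffold of the acidic stalk, RPLP0, at 1275, close to its partners RPLP1 at 1590 and RPLP2 at 1205. Very short coding sequences make this scale coarse, since fragments also cover the untranslated ends.

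The paralogs were far below their parents. RPL22L1 stood at 38.8 ± 2.8 CPM per kb in vehicle, which was 3.02% ± 0.093 of RPL22, a 60S protein that also binds viral and cellular RNA. Over the 57 libraries this ratio ran from 2.52% to 4.23%. RPL26L1 stood at 2.48% ± 0.13 of RPL26, with a range of 2.08% to 3.82%, and RPS27L, a p53 target, at 7.88% ± 0.21 of RPS27, with a range of 6.43% to 9.08%. RPL36AL at 19.7% ± 1.6 of RPL36A and RPL7L1 at 24.8% ± 0.76 of RPL7 were the closest to their parents. None of the 5 paralogs reached its parent in any library.

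**Figure D2:**
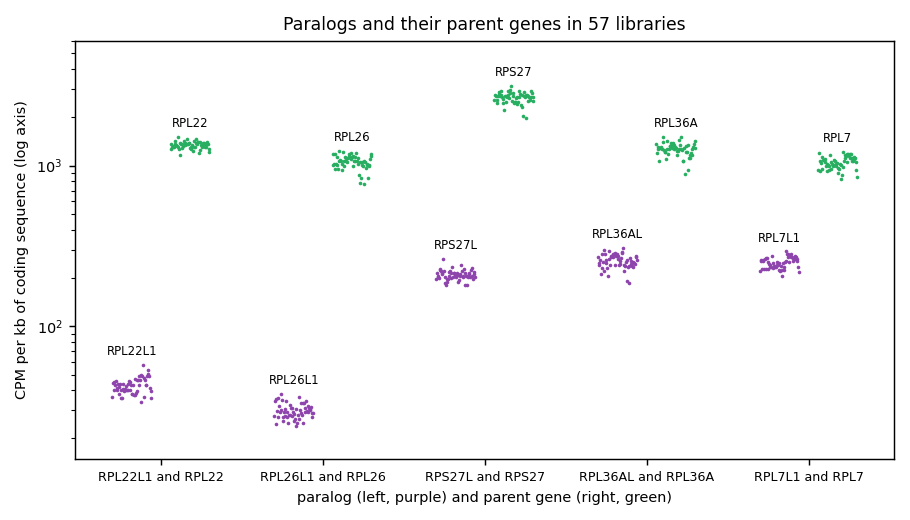
Levels of 5 paralogs (left of each pair) and their parent genes (right) in CPM per kb of coding sequence on a log axis, 1 point for each of 57 libraries. RPL22L1 and RPL26L1 lie lowest, at a few percent of RPL22 and RPL26.

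Members differed in how much their level varied over the 57 libraries, which hold every tested treatment and both library sets. The median coefficient of variation over 57 libraries was 8.45% for the members and 9.44% for all 16356 genes tested. RPL4, a 60S core protein, was the steadiest at 2.75%, and RPS12 (22.5%), RPS21 (21.9%), RPS27A (17.7%), RPS26 (17.3%) and RPL31 (17.1%) were the most variable canonical members. The readthrough genes RPS10-NUDT3 and RPL17-C18orf32 varied by 60.6% and 97.9%. RPL17-C18orf32 ran from 0 to 5.95 CPM, shares its exons with RPL17, and depends on how the counting split reads between them, so its fold changes are not interpreted. Reads shared with annotated ribosomal protein pseudogenes carry the same uncertainty. These pseudogenes held 1.28% to 1.78% of the counts of family and pseudogenes together in the tested libraries.

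The first question was which members differed between each extract at 500 µg/mL and vehicle. A member was called at an adjusted p under 0.05 in edgeR's quasi-likelihood test, with Benjamini-Hochberg adjustment over all genes tested. With the filter on low counts, no member was called for any of the 4 single plants. For Cinnamomi Cortex that count of 0 stood against 12.7% of all genes called, with 1 member at an unadjusted p under 0.05 (25.8% of all genes). For Astragali Radix 0 members were called, against 3.61% of all genes, and 7 had an unadjusted p under 0.05 (19.6% of all genes). Both of these extracts hold libraries of both sets, while vehicle lies wholly in the first. With the library set as a term in the fit, Astragali Radix had 0 members called (0.758% of all genes) and 1 unadjusted (9.53%). Cinnamomi Cortex then had 0 (11.7%) and 3 unadjusted (24.7%). Cnidii Rhizoma gave 0 members (1.38% of genes called) and 2 unadjusted (11.6% of genes), and Rehmanniae Radix Preparata gave 0 (0.593%) and 3 unadjusted (8.9%). DESeq2 also called 0 members in each of these 4 comparisons. The share of all genes it called was 13.4% for Cinnamomi Cortex and 4.96% for Astragali Radix. It was 2.04% for Cnidii Rhizoma and 0.868% for Rehmanniae Radix Preparata. With no filter on low counts and no library set term, 34269 genes and 87 members were fitted. There edgeR called 3 members for Cinnamomi Cortex (5.69% of genes), 18 for Astragali Radix (3.57%), 3 for Cnidii Rhizoma (1.07%) and 4 for Rehmanniae Radix Preparata (0.773%). Without Astragali Radix 500 µg/mL replicate 1, 1 member was called for that extract (7.24% of genes).

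Cinnamomi Cortex changed many genes without a called ribosomal protein gene. Its median log2 fold change over the 84 members was 0.04, with 59 above 0 and 25 below, and the largest unadjusted signal was RPL8, a 60S protein next to the peptidyl transferase centre, at 0.10 ± 0.046 (SE, adjusted p = 0.134 in edgeR). Cnidii Rhizoma had a median of 0.05 with 68 members above 0, and Rehmanniae Radix Preparata a median of -0.03 with 56 members below 0. The small 40S protein RPS28 had the lowest value in Rehmanniae Radix Preparata, -0.30 ± 0.13 (SE, adjusted p = 0.468 in edgeR). The median standard error of a single member was 0.083, and the family medians were not tested.

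The 2 formulas gave called members in both directions. Sagunja-tang 500 µg/mL had 31 of 84 members called, 26 higher and 5 lower, against 19.9% of all genes called (11.6% higher and 8.28% lower). Samul-tang 500 µg/mL had 30 called, 25 higher and 5 lower, against 18.1% of all genes (10.1% higher and 8.04% lower). Both comparisons use the same 3 vehicle libraries. The median log2 fold change over the members was 0.07 for Sagunja-tang and 0.06 for Samul-tang, against 0.0011 and 0.0035 over all genes. The share of members called higher, 31% and 29.8%, was above that of all genes. The share called lower, 5.95% for each formula, was below that of all genes. Both family medians lay slightly above those of all genes and were not tested. At an unadjusted p under 0.05 the counts were 43 (33.6% of all genes) and 42 (32.3%). Both counts rest on single libraries.

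Without vehicle replicate 3, edgeR called 2 members for Sagunja-tang (7.86% of all genes called in that fit) and 1 for Samul-tang (6.24%). Without vehicle replicate 2 it called 19 (13.4% of all genes) and 14 (11.6%). Without Sagunja-tang 500 µg/mL replicate 3 it called 16 members for that formula (11.7% of all genes). For Samul-tang, 2 were called without its 500 µg/mL replicate 1 (7.88% of all genes) and 12 without replicate 2 (12.2%). On library size alone, with no scaling factors, Sagunja-tang had 35 called, of which 33 were higher and 2 lower, against 21.1% of all genes called.

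By subunit, the called members were spread over both subunits of the ribosome. In Sagunja-tang 11 of 31 genes of the 40S subunit were higher and 3 lower, and 13 of 46 genes of the 60S subunit were higher and 2 lower. In Samul-tang the counts were 11 higher and 3 lower in the 40S subunit, and 12 higher and 2 lower in the 60S subunit. Of 5 paralogs, RPL22L1 and RPL7L1 were called higher in both. Of the members with a promoter entry, the TOP tract opened 19 of 23 called higher by Sagunja-tang, 3 of 4 called lower and 25 of 41 not called, and for Samul-tang 18 of 22, 3 of 4 and 26 of 42.

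The largest increases among canonical members were in the small subunit. RPS12, a 40S beak protein, had 280.1, 274.5 and 305.7 CPM in Sagunja-tang 500 µg/mL and 351.5, 276.4 and 241.9 in Samul-tang 500 µg/mL, against 205.5, 192.7 and 144.5 in vehicle. All 6 formula libraries lay above all 3 vehicle libraries, and vehicle replicate 3 was the lowest. The log2 fold change was 0.66 ± 0.19 (SE, adjusted p = 0.0121 in edgeR) for Sagunja-tang and 0.68 ± 0.19 (adjusted p = 0.0116) for Samul-tang.

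RPS21, a small 40S protein, was called as well. It had 280.1, 236.3 and 264.7 CPM in Sagunja-tang and 304.4, 256.1 and 241.1 CPM in Samul-tang, against 194.6, 160.7 and 137.9 CPM in vehicle. The groups did not overlap, and vehicle replicate 3 was again the lowest. Its log2 fold change was 0.66 ± 0.19 (SE, adjusted p = 0.0118 in edgeR) for Sagunja-tang and 0.70 ± 0.19 (adjusted p = 0.00913) for Samul-tang.

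RPS27A is made as a fusion of ubiquitin with a 40S protein. It had 376.2, 376.9 and 376.0 CPM in Sagunja-tang and 441.2, 386.7 and 341.4 CPM in Samul-tang, against 302.8, 264.7 and 215.1 CPM in vehicle. The Sagunja-tang libraries were nearly equal, and both formulas lay above vehicle in every library. The log2 fold change was 0.53 ± 0.14 (SE, adjusted p = 0.00824 in edgeR) and 0.58 ± 0.14 (adjusted p = 0.005).

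In the large subunit, the largest called increase was that of RPL9 in Sagunja-tang and of RPL31 in Samul-tang. RPL9, a protein near the base of the stalk, had 551.7, 488.9 and 510.8 CPM in Sagunja-tang, against 404.6, 364.9 and 281.5 CPM in vehicle, with no overlap and a log2 fold change of 0.56 ± 0.15 (SE, adjusted p = 0.00641 in edgeR). RPL31, which lies at the exit of the nascent peptide tunnel, had 357.6, 320.6 and 295.2 CPM in Samul-tang, against 256.2, 214.4 and 195.1 CPM in vehicle. Those groups did not overlap either, and the log2 fold change was 0.55 ± 0.14 (SE, adjusted p = 0.00716 in edgeR).

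Among the members called lower by Sagunja-tang were RPL28, RPS24, RPS26 and RPL12, and Samul-tang, set against the same vehicle libraries, had these called lower too. RPS24 is a 40S protein mutated in some patients with Diamond-Blackfan anaemia. It had 809.0, 747.0 and 729.7 CPM in Sagunja-tang and 630.2, 784.3 and 784.7 CPM in Samul-tang, against 1027.8, 966.2 and 1092.4 CPM in vehicle, with no overlap. Its log2 fold change was -0.43 ± 0.16 (SE, adjusted p = 0.0453 in edgeR) for Sagunja-tang and -0.49 ± 0.16 (adjusted p = 0.0259) for Samul-tang.

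RPS26, which sits at the mRNA exit channel, had 399.6, 417.5 and 392.6 CPM in Sagunja-tang and 353.9, 387.5 and 438.1 CPM in Samul-tang, against 489.2, 532.4 and 593.3 CPM in vehicle. The groups did not overlap, and the log2 fold changes were -0.42 ± 0.15 (SE, adjusted p = 0.0491 in edgeR) and -0.45 ± 0.15 (adjusted p = 0.0351). RPL28 had 893.4, 768.1 and 835.1 CPM in Sagunja-tang and 788.9, 831.3 and 901.6 CPM in Samul-tang, against 1023.3, 1102.0 and 1274.8 CPM in vehicle. It fell in both comparisons, with log2 fold changes of -0.45 ± 0.14 (SE, adjusted p = 0.0183 in edgeR) and -0.43 ± 0.14 (adjusted p = 0.0242).

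The acidic stalk, which recruits the translation factors, moved in one direction where it was called. RPLP0 had 1440.3, 1440.4 and 1418.4 CPM in Sagunja-tang, against 1300.4, 1209.0 and 1128.5 CPM in vehicle, a log2 fold change of 0.24 ± 0.07 (SE, adjusted p = 0.0138 in edgeR). RPLP2 was called higher in both formulas, at 0.33 and 0.35, and RPLP1 in Samul-tang at 0.48 (adjusted p = 0.0182) but not in Sagunja-tang at 0.38 (adjusted p = 0.055). RPL12, which joins the stalk base, was lower at -0.25 in Sagunja-tang and -0.29 in Samul-tang.

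Other members with well-known roles moved less. RPSA, which is also known as a laminin receptor, had 684.3, 722.4 and 710.6 CPM in Sagunja-tang, against 629.8, 591.6 and 565.8 CPM in vehicle, a log2 fold change of 0.24 ± 0.06 (SE, adjusted p = 0.00209 in edgeR). RPL3, which lies near the peptidyl transferase centre, had a log2 fold change of 0.15 ± 0.05 (adjusted p = 0.0218 in edgeR) in Sagunja-tang. It was not called in Samul-tang, at 0.10 ± 0.048 (adjusted p = 0.144). RPS6 had 1399.5, 1431.0 and 1401.2 CPM in Sagunja-tang, against 1357.6, 1250.1 and 1209.8 CPM in vehicle, and was not called at 0.15 ± 0.060 (adjusted p = 0.070). RPL4, the steadiest member, stood at 0.05 in Sagunja-tang and 0.01 in Samul-tang.

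Among paralogs, RPL22L1 had 18.28, 17.82 and 20.95 CPM in Sagunja-tang and 19.41, 18.58 and 17.97 CPM in Samul-tang, against 15.06, 14.48 and 13.04 CPM in vehicle. Neither formula overlapped vehicle, and the log2 fold changes were 0.42 ± 0.10 (SE, adjusted p = 0.00195 in edgeR) and 0.39 ± 0.10 (adjusted p = 0.00408). Its parent RPL22 stood at 0.06 and 0.08 and was not called. RPS27L and RPS27 were not called in either formula, with log2 fold changes between -0.02 and 0.05.

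**Figure D3:**
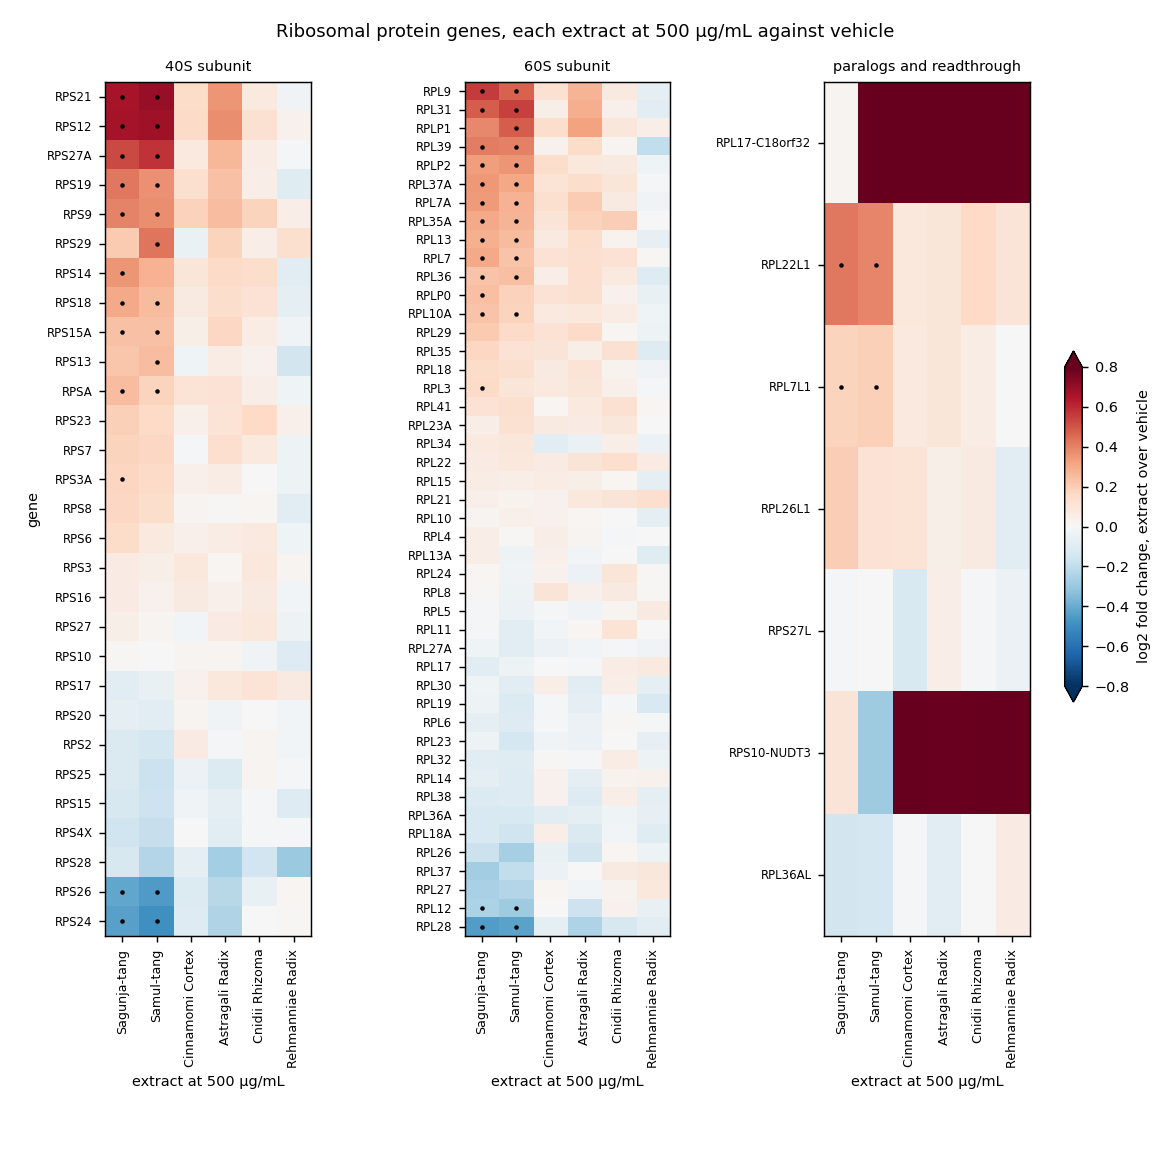
Log2 fold change of tested members (2 of the 84 are not drawn) for each extract at 500 µg/mL over vehicle, 1 row per gene by subunit and 1 column per extract, with a dot where edgeR's adjusted p was under 0.05. Dots fall in the Sagunja-tang and Samul-tang columns and in no single-plant column.

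Differences between the library sets could also be measured within single-plant groups, which hold no formula library. In the 6 Cinnamomi Cortex and Astragali Radix groups, the mean difference of the second set minus the first in log2 CPM was 0.47 for RPS12, 0.44 for RPS21, 0.37 for RPL31, 0.33 for RPL9, 0.32 for RPS27A and 0.32 for RPLP1. Each of these was positive in 6 of 6 groups. It was -0.37 for RPS24, -0.30 for RPS26 and -0.25 for RPL28, each negative in 6 of 6 groups. All 6 groups divide the sets by replicate number in the same way, so they do not repeat the set difference independently. Past 0.25 in either direction lay 15 of 84 members, 9 positive and 6 negative, against 8.5% of all genes. The negative ones include the readthrough genes RPS10-NUDT3 at -0.62 and RPL17-C18orf32 at -0.26. Their means were only 2.37 and 1.06 CPM, and each was positive in 2 of 6 groups.

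Per library, RPS12 in those groups ran from 182.8 through a median of 256.5 to 302.4 CPM in 12 libraries of the second set, against 163.9, 178.1 and 189.9 CPM (lowest, median, highest) in 6 of the first. The 182.8 belonged to Cinnamomi Cortex 500 µg/mL replicate 2, and without that library the second set began at 198.5 CPM and no longer overlapped the first. RPS24 ran from 705.8 through 790.9 to 977.2 CPM in the second set, against 935.1, 1054 and 1158 CPM in the first, and the sets overlapped with or without that library, whose value was 967.4 CPM. With all libraries, 4 of 84 members did not overlap between the sets, all higher in the second and RPL7L1, RPSA and RPS9 among them, against 2.58% of all genes. Without that library 17 did not overlap, 12 higher and 5 lower, against 8.98% of all genes.

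Treated as a coefficient in the fit over all groups, the library set was past an adjusted p of 0.05 for 45 of 84 members, 27 higher and 18 lower, against 34.1% of all genes. Without Cinnamomi Cortex 500 µg/mL replicate 2 the count was 47, against 36.5% of all genes. The sets were recognised in these same data, so these counts are descriptions.

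All 31 members called for Sagunja-tang and all 30 called for Samul-tang had the sign of the set difference measured in the plant extracts. Among all genes called, 2989 of 3252 (91.9%) and 2779 of 2966 (93.7%) did. Sharing a sign does not mean a like size. The set difference of RPL22L1, called higher in both formulas, was 0.05 in log2 CPM and positive in 4 of 6 groups. Its set coefficient was 0.05 ± 0.058 (SE, adjusted p = 0.526 in edgeR). Over the 84 members, the set difference and the difference of all 9 Sagunja-tang libraries from vehicle correlated at Pearson's r = 0.80 and Spearman's rho = 0.85, and those of Samul-tang at 0.73 and 0.86. Over all 16356 genes Pearson's r was 0.65 and 0.69. Genes are not independent replicates, and no library enters both quantities.

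**Figure D4:**
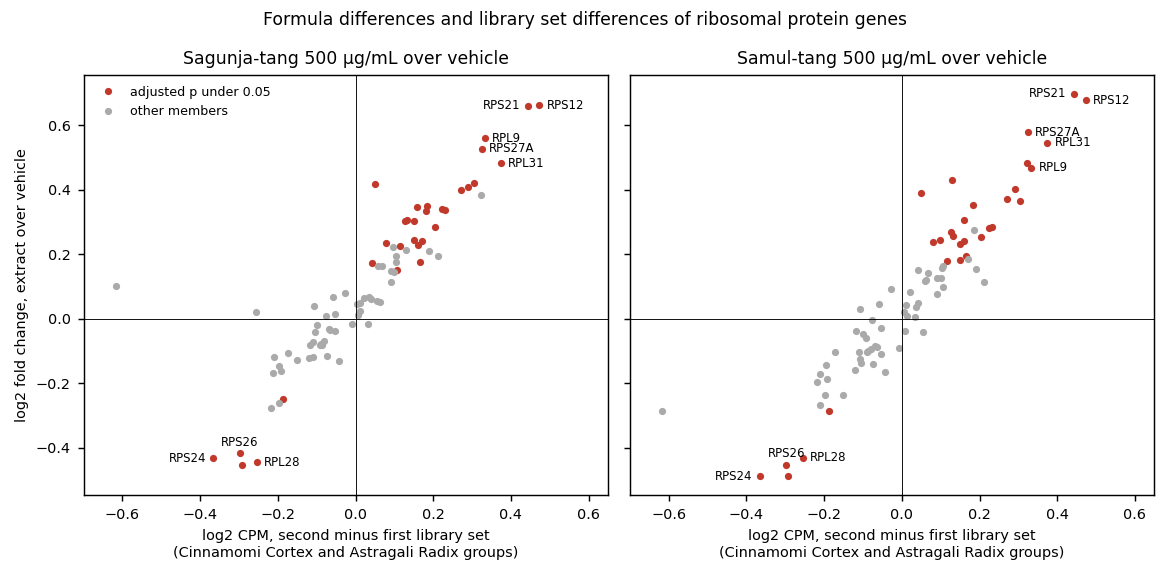
Each of the 84 members as a point, with the second minus first library set difference in log2 CPM (Cinnamomi Cortex and Astragali Radix groups) across and the log2 fold change of Sagunja-tang (left) or Samul-tang (right) 500 µg/mL over vehicle upward, called members in red. RPS12, RPS21, RPL9, RPS27A and RPL31 lie at the upper right and RPS24, RPS26 and RPL28 at the lower left; 1 member, RPL17-C18orf32, lies outside the right panel.

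With the library set as a term in the fit, no member was called for either formula. edgeR gave 0 members for Sagunja-tang, against 2.08% of all genes, with 2 at an unadjusted p under 0.05 (14% of all genes). For Samul-tang it gave 0, against 1.17% of all genes, with 2 unadjusted (12.8% of all genes). RPS12 then stood at 0.18 for Sagunja-tang (adjusted p = 0.689 in edgeR), RPL9 at 0.22 (adjusted p = 0.488) and RPS24 at -0.07 (adjusted p = 0.879). The set coefficients of these members, 0.48, 0.34 and -0.36, were among the largest in the family. They therefore do not stand for every member. RPL22L1, with a set coefficient of only 0.05, was not called in that fit either. Without Cinnamomi Cortex 500 µg/mL replicate 2 in that fit the counts were again 0 and 0, with 2 and 3 members at an unadjusted p under 0.05. DESeq2, without the set term, called 33 members for Sagunja-tang (20.7% of all genes) and 34 for Samul-tang (19.5%).

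At every dose of the formulas the mean of RPS12 was above that of vehicle and the mean of RPS24 below it. RPS12 averaged 180.9 ± 32.1 CPM in vehicle and 267.8 ± 25.8, 306.5 ± 61.5 and 286.8 ± 16.6 CPM at 20, 100 and 500 µg/mL of Sagunja-tang (SD, n = 3 each). In Samul-tang it averaged 262.2 ± 13.5, 277.3 ± 6.4 and 289.9 ± 56.1 CPM. RPS24 averaged 1028.8 ± 63.1 CPM in vehicle and 666.6 ± 96.4, 812.8 ± 176.7 and 761.9 ± 41.7 CPM at the rising doses of Sagunja-tang. The step from vehicle to 20 µg/mL was larger than that between any of the 3 doses for both genes in Sagunja-tang.

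In the single plants measured wholly in the first set, RPS12 overlapped its vehicle levels. It ran from 144.0 through 188.3 to 232.3 CPM in the 18 libraries of Cnidii Rhizoma and Rehmanniae Radix Preparata, against 144.5 to 205.5 CPM in vehicle. In the single Paeoniae Radix library at 20 µg/mL it reached 451.7 CPM, the highest of all, and RPS21 there had 385.5 CPM. At 100 and 500 µg/mL of Paeoniae Radix RPS12 had 227.7 and 243.0 CPM. Those 3 values have no replicate.

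**Figure D5:**
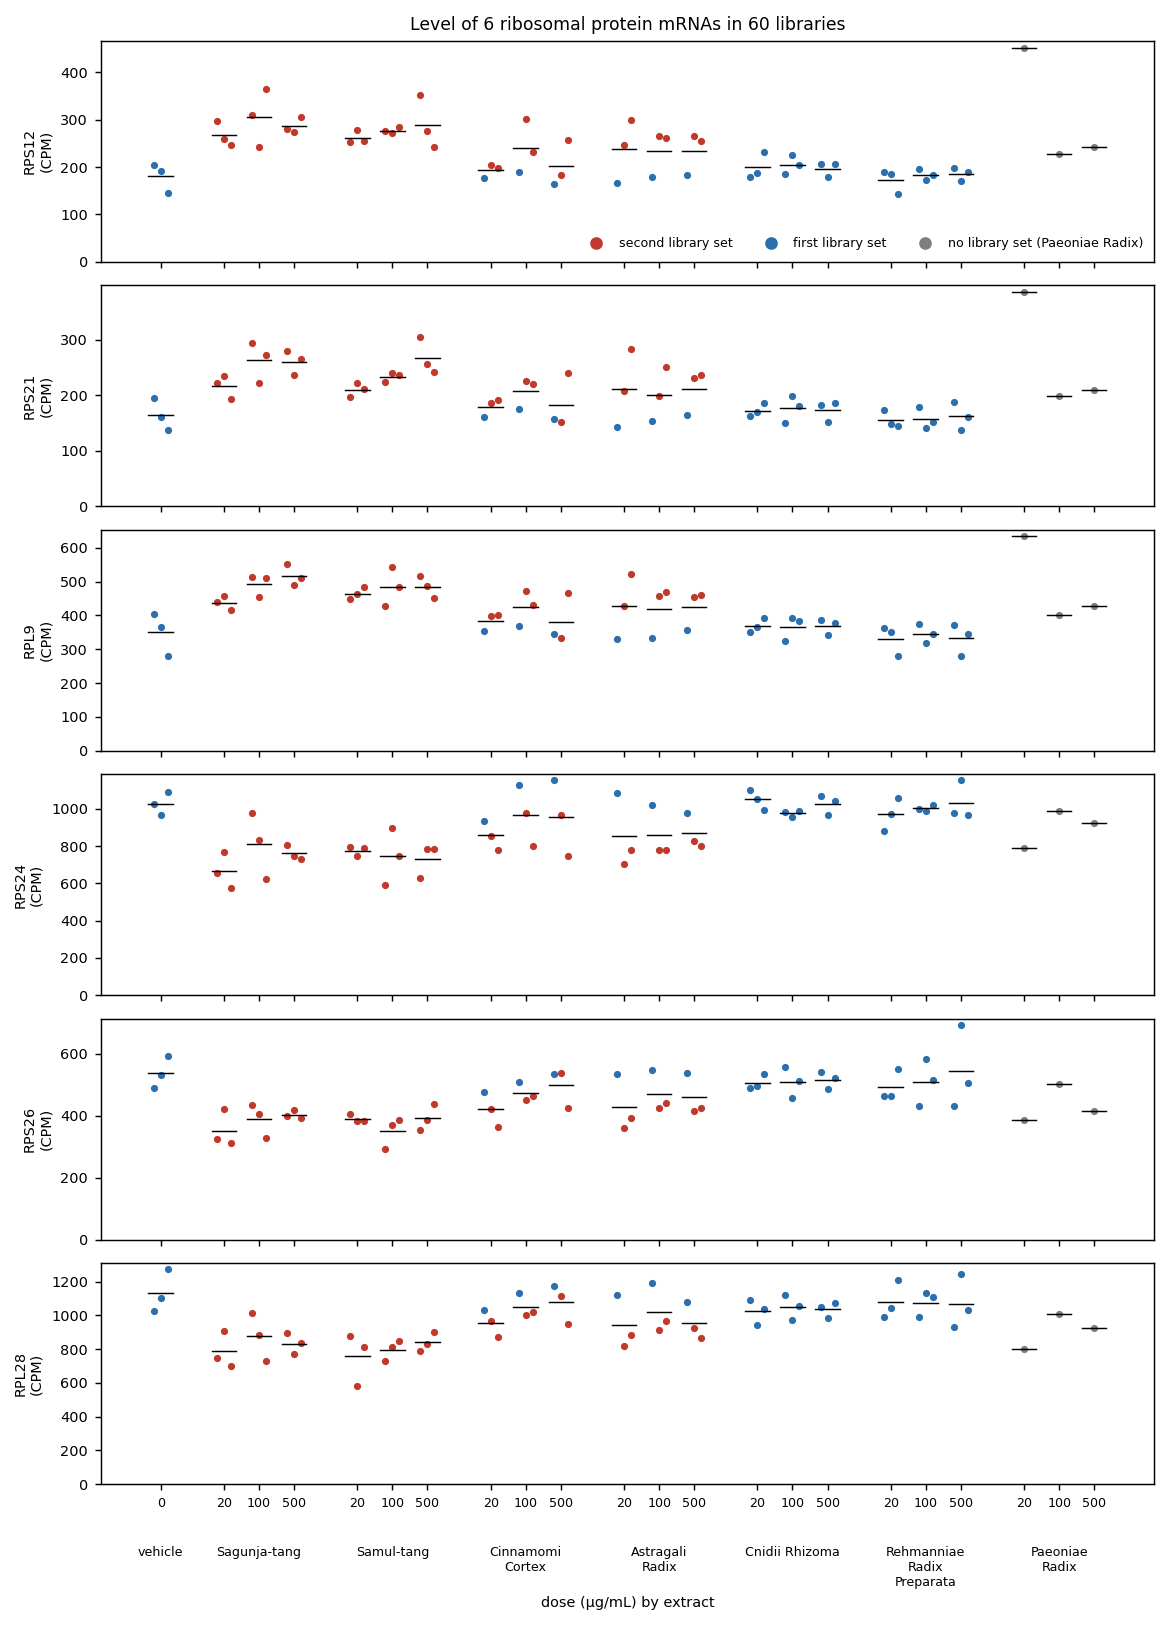
CPM of RPS12, RPS21, RPL9, RPS24, RPS26 and RPL28 in all 60 libraries by extract and dose in µg/mL, with colour for library set. RPS12, RPS21 and RPL9 are higher, and RPS24, RPS26 and RPL28 lower, in most libraries of the second set, and RPS12 reaches 451.7 CPM in the Paeoniae Radix library at 20 µg/mL.

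In the comparison of 500 with 20 µg/mL of one extract, both doses hold the same numbers of libraries of each set by their codes, although Cinnamomi Cortex 500 µg/mL replicate 2 lay with the first set. With the filter on low counts, Cinnamomi Cortex was the only extract with called members in this comparison, with 2 of 84, both higher, against 10.1% of all genes called and 4.51% called higher. At an unadjusted p under 0.05 there were 13 (23.4% of all genes). With the set term 3 members were called, against 13.8% of all genes, and DESeq2 called 4 (10.9% of all genes). With no filter edgeR called 18 (4.94% of genes).

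RPS3, a 40S protein that lines the mRNA entry channel, had 1298.0, 1291.3 and 1280.1 CPM at 500 µg/mL of Cinnamomi Cortex, against 1171.0, 1179.8 and 1077.5 CPM at 20 µg/mL. The groups did not overlap, and the log2 fold change was 0.17 ± 0.045 (SE, adjusted p = 0.00624 in edgeR). Vehicle cells, at 1262.0, 1189.8 and 1203.9 CPM, lay between the doses. RPS20, a 40S head protein, had 588.1, 557.0 and 563.6 CPM at 500 µg/mL, against 527.7, 487.0 and 443.8 CPM at 20 µg/mL, without overlap, and vehicle had 567.5, 544.3 and 573.5 CPM. Its log2 fold change was 0.23 ± 0.074 (SE, adjusted p = 0.0404 in edgeR). Without Cinnamomi Cortex 20 µg/mL replicate 3 no member was called (5.66% of all genes), and without replicate 1 of that group 5 were (10.4%). Leaving out Cinnamomi Cortex 500 µg/mL replicate 1 or replicate 2 left 1 each, against 6.85% of all genes in either fit. Without that replicate 2, the library that lay with the first set, RPS3 stood at 0.17 (adjusted p = 0.0251 in edgeR) and RPS20 at 0.24 (adjusted p = 0.0700). Both genes were lower in the second set on average over the 6 groups, RPS3 by a mean of -0.06 and RPS20 by -0.08 in log2 CPM.

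Over the whole family, Cinnamomi Cortex 500 over 20 µg/mL had a median log2 fold change of 0.10 with 76 of 84 members above 0. On library size alone, with no scaling factors, that median was 0.03 and no member was called, against 12% of all genes. There RPS3 stood at 0.11 (adjusted p = 0.100 in edgeR). Sagunja-tang 500 over 20 µg/mL had a median of 0.14 with 81 members above 0. No member was called there, against 0.00611% of all genes, but 37 members, all higher, had an unadjusted p under 0.05, against 9.56% of all genes in either direction and 5.52% higher. RPL22L1 had the smallest p in that comparison, at 0.34 ± 0.093 (SE, adjusted p = 0.171 in edgeR), and RPS28 the highest fold, 0.38 ± 0.13 (adjusted p = 0.340). DESeq2 called 0 there (0.257% of all genes), with 41 at an unadjusted p under 0.05. Without Sagunja-tang 20 µg/mL replicate 2, which held the highest family share of its group, edgeR called 7 members (0.344% of all genes). With no filter on low counts edgeR called 24 there (0.622% of genes).

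With the filter on low counts, the other dose comparisons gave no called member in edgeR or DESeq2. With no filter, edgeR called 1 for Samul-tang (0.403% of genes), 0 for Cnidii Rhizoma (0.438%), 4 for Rehmanniae Radix Preparata (0.595%) and 4 for Astragali Radix (0.21%). Samul-tang had 0 members (0.141% of all genes) and 0 unadjusted (6.3%), with a median of 0.05 and 67 members above 0. Cnidii Rhizoma had 0 (0.397%) and 0 unadjusted (7.34%), Rehmanniae Radix Preparata 0 (0.171%) and 5 unadjusted (7.89%), and Astragali Radix 0 (0.0795%) and 2 unadjusted (5.48%). Between the formulas at 500 µg/mL, Sagunja-tang over Samul-tang, 0 members were called (0.318% of all genes) and 0 at an unadjusted p under 0.05 (3.96%), with a median of 0.03, and with no filter 1 was called (0.341% of genes). The median standard error of a member in that comparison was 0.082. That p-values missed the threshold does not show that the formulas act alike on the family.

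Genes that work with the family were looked at as lists, each given by counts beside its median. FAU, outside the symbol rule, had 203 ± 6.7 CPM in Sagunja-tang and 198 ± 15 CPM in Samul-tang, against 150 ± 13 CPM in vehicle (SD, n = 3 each). FAU was called at 0.44 (adjusted p = 0.00975 in edgeR) and 0.41 (adjusted p = 0.0179). With the library set as a term it stood at 0.12 ± 0.11 (SE, adjusted p = 0.668) and 0.087 ± 0.11 (adjusted p = 0.793) and was not called.

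The counts of the following lists stand against 19.9% of all genes called for Sagunja-tang (11.6% higher and 8.28% lower) and 18.1% for Samul-tang (10.1% higher and 8.04% lower). Nearly all of these calls were absent with the library set as a term. Ribosome biogenesis factors, which process ribosomal RNA and assemble the subunits, had 8 of 33 called higher by Sagunja-tang and 7 by Samul-tang, with none lower and median log2 fold changes of 0.08 and 0.06. BOP1, a factor of 60S maturation, stood at 0.47 (adjusted p = 0.00445 in edgeR) and 0.41 (adjusted p = 0.0119), and BYSL, a factor of 40S maturation, at 0.38 and 0.37. Dedicated chaperones of single ribosomal proteins had 4 and 2 of 7 called higher and none lower, among them AAMP, at 0.49 and 0.44, and HEATR3, at 0.29 and 0.37. RNA polymerase I genes, which transcribe the ribosomal RNA, had 4 and 3 of 14 higher and none lower, with POLR1E at 0.33 in both.

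TOP mRNAs that encode other proteins did not follow one direction. Of 20, Sagunja-tang had 2 higher (EEF1A1 at 0.19 and EEF1G at 0.17) and 3 lower, and Samul-tang had 0 higher and 4 lower. The poly(A)-binding protein PABPC1 was lower in both, at -0.38 (adjusted p = 0.00375 in edgeR) and -0.37 (adjusted p = 0.00475). Of 18 genes of the mTOR pathway and TOP regulation, Sagunja-tang had 2 higher and 3 lower, including LARP1 at -0.11 (adjusted p = 0.02), and Samul-tang 1 higher, the mTOR inhibitor DDIT4 at 0.41, and 1 lower.

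Nuclear-encoded mitochondrial ribosomal proteins had 17 of 78 called higher and 0 lower in Sagunja-tang, and 17 higher and 3 lower in Samul-tang, with MRPL33 at 0.55 and 0.54. Mitochondrially encoded mRNAs had 0 of 13 higher and 11 lower in Sagunja-tang, and 0 higher and 10 lower in Samul-tang, with medians of -0.67 and -0.70. With the library set as a term, 1 biogenesis gene and 1 mitochondrial ribosomal protein gene were called for Sagunja-tang, and 2 biogenesis genes and 1 RNA polymerase I gene for Samul-tang. No gene of the chaperone, TOP, mTOR or mitochondrial mRNA lists was called in that fit. Beyond this fit, library set and formula cannot be told apart in these comparisons.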

How the data were processed

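The authors deposited 1 table of estimated counts per gene. The tools were RSEM 1.3.3, STAR 2.7.3a, Trim Galore 0.6.5 and FastQC 0.11.9 on GRCh38, per the submitters' processing notes. Annotation and counting strand were not given in the sources used here. RSEM splits reads that fit several genes, so values of members with near-identical copies are uncertain. The deposited expected counts, of which 8.8% of values are not whole, were rounded. The 213 other columns of per-sample values were not used.

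Members were found by symbol, and gene positions come from the GRCh38 annotation. Members and gene lists were chosen with earlier results of these data known. Genes passed edgeR's filterByExpr at a minimum count of 10, which left 16356 genes in 57 libraries of 19 groups, with TMM factors of 0.938 to 1.04. The quasi-likelihood test of edgeR 4.0.16 (R 4.3.3, limma 3.58.1), with robust estimation and a common biological coefficient of variation of 0.0571, was fitted over all groups, since these share 1 estimate of the spread, and p-values were adjusted over all genes. It was first tested on simulated data. Values per library are given for a fixed panel of members and for up to 4 higher and 4 lower called members in each comparison. Set differences in log2 CPM used a pseudocount of 0.5.

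Alternatives were RLE factors, library size alone, TMM from genes outside the family, DESeq2 1.42.0, no filter on low counts, a replicate block, a library set term, leaving out each library, and a family share without mitochondrial mRNAs. Leaving Cinnamomi Cortex 500 µg/mL replicate 2 out of the set comparisons was added after seeing the data. Replicate numbers come from the labels, which do not say that they mark a shared culture. Deviations of same-numbered libraries correlated above 0.1 in all 3 pairs only for Astragali Radix 500 against 20 µg/mL (0.47, 0.12 and 0.27). Cinnamomi Cortex 500 against 20 µg/mL gave 0.30, -0.05 and 0.28. In both extracts replicate number and library set coincide, so these correlations cannot tell a shared culture from the library set. Values of some genes are not reported here.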

Additional observations from a re-analysis of the deposited data

How the results depend on the processing

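With the library set term, the Sagunja-tang and Samul-tang counts against vehicle were 0 and 0 (2.08% and 1.17% of all genes). These stood in place of 31 and 30 (19.9% and 18.1%). Leaving out 1 library at a time gave 2 (7.86% of all genes) to 34 (19.3%) for Sagunja-tang against vehicle. For Samul-tang it gave 1 (6.24%) to 32 (17.9%). It gave 0 (5.66%) to 5 (10.4%) for Cinnamomi Cortex 500 against 20 µg/mL. For Sagunja-tang 500 against 20 µg/mL it gave 0 to 7 (0.344% at 7), and for Astragali Radix against vehicle 0 to 1 (7.24% at 1). With no filter on low counts, calls against vehicle were 3 for Cinnamomi Cortex (5.69% of genes) and 3 for Cnidii Rhizoma (1.07%). They were 4 for Rehmanniae Radix Preparata (0.773%), 18 for Astragali Radix (3.57%) and 46 for Samul-tang (9.08%). The unfiltered 500 against 20 µg/mL counts were 18 for Cinnamomi Cortex (4.94% of genes), 4 for Rehmanniae Radix Preparata (0.595%) and 4 for Astragali Radix (0.21%). They were 24 for Sagunja-tang (0.622%) and 1 for Samul-tang (0.403%), and 1 was called between the formulas (0.341%). The cause was not tested. For Cinnamomi Cortex 500 against 20 µg/mL, library size alone gave 0 calls (12% of all genes) and DESeq2 gave 4 (10.9%), in place of 2 (10.1%).

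Of 18 named fold changes, none changed sign in any alternative. The set term ended 16 of these calls and library size alone 4, and with 1 library left out 45 values were no longer called and 63 still were. RLE factors, TMM from genes outside the family, DESeq2, no filter and the replicate block left all 18 called. With the replicate block, 30 and 30 members were called for Sagunja-tang and Samul-tang against vehicle (22.5% and 20.7% of all genes). The member counts with that block stayed within 1.5 times those without it in every comparison. Depth was not varied. Of the 6 members below the filter, RPL10L and RPL39L had 0 counts in all 57 tested libraries.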
